A study of Homo sapiens with 12 samples.

Results

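Lefamulin, an antibiotic of the pleuromutilin class, was added to HaCaT keratinocytes given M5, and gene expression was compared with that of cells given M5 without it. The comparison takes 6 of the 12 RNA sequencing libraries of the series: 3 labelled M5+lefamulin and 3 labelled M5. The comparison covers all genes and not a set picked for its response, while the genes named below include those with the largest changes. Every gene whose counts passed a filter on low values was tested, which made 14207 of the 22545 genes in the table and left 8338 not tested. HaCaT is an immortalised human keratinocyte line, here a single line of genotype WT in every group. M5 is a usual name for a blend of inflammatory cytokines applied to keratinocytes to mimic psoriasis, but its make-up here and all doses, times and solvents are not stated in the labels. The other libraries are 3 of untreated cells, used below to place levels, and 3 of cells given M5 with retapamulin. The series title names psoriasis together with the products of the genes HNRNPU and TNF.

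In psoriatic skin, keratinocytes exposed to cytokines of immune cells secrete chemokines, antimicrobial proteins and further cytokines, divide more and differentiate abnormally. Cholesterol and fatty acid synthesis in these cells is run by SREBP transcription factors, which stay in the endoplasmic reticulum with their escort SCAP and the retention proteins INSIG1 and INSIG2 while sterols are plentiful, and are cleaved and released when sterols are scarce. Pleuromutilins act on the ribosome of bacteria, and mitochondria carry a ribosome of bacterial descent that translates the mRNAs of mitochondrial DNA.

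The 6 libraries held 35626528 to 37272290 counted reads or fragments. The 8 markers of keratinocytes were all tested, and their summed level was 4353 to 4560.2 CPM (a gene's count relative to the TMM-scaled size of its library) in lefamulin libraries and 2955 to 3088 CPM in M5 libraries. Singly, 4 of them rose, SFN (1.26), LAMB3 (1.19), COL17A1 (0.63) and PERP (0.22), and 4 fell, KRT14 (-2.10), TP63 (-1.0), KRT5 (-0.49) and ITGB4 (-0.33). KRT14, a keratin that defines the basal layer, was counted at a low level, with a mean of 0.796 CPM with lefamulin and 3.43 CPM with M5, while its partner KRT5 had 454 CPM with lefamulin and 637 CPM with M5. How reads shared between similar genes were counted is not known, so the low KRT14 level may not be its true level. Of the markers of fibroblasts 2 of 6 were tested, and the summed level was 15.4 to 16.9 CPM with lefamulin and 5.61 to 6.86 CPM with M5, nearly all of it COL1A1, while the defining COL1A2 was at 0 in all libraries of both groups. Of the endothelial markers 2 of 5 were tested (118 to 123 CPM summed with lefamulin, 117 to 122 CPM with M5), of the immune markers 2 of 6 (39.4 to 42.8 CPM, against 29.8 to 31.1 CPM with M5) and of the melanocyte markers 1 of 5. The pan-leukocyte gene PTPRC averaged 0.00922 CPM with lefamulin and was at 0 with M5, and PECAM1 averaged 0.00922 CPM with lefamulin and 0.0178 CPM with M5. Exceptions to low levels were CDH5, an endothelial cadherin, with means of 119 CPM with lefamulin and 119.6 CPM with M5, and CD68, a macrophage lysosomal protein, with 41.0 CPM with lefamulin and 29.0 CPM with M5. The other tested endothelial marker, VWF, rose by 5.35 to a mean of 2.34 CPM with lefamulin, against 0.0543 CPM with M5. The other tested immune marker, CD14, fell by 2.73 to 0.235 CPM with lefamulin, against 1.58 CPM with M5, and by 3.33 without lefamulin replicate 2. The part of these markers in the results below was not tested.

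Both genes of the series title were lower with lefamulin. TNF, which encodes the cytokine tumour necrosis factor, had 2.35, 3.19 and 3.82 CPM in the lefamulin libraries, against 5.29, 4.73 and 5.34 CPM in the M5 libraries. The groups did not overlap, and the fold change was -0.71 on the log2 scale (standard error SE 0.19, edgeR adjusted p = 0.00155). HNRNPU, which encodes a nuclear RNA-binding protein, had 647, 661 and 653 CPM with lefamulin, against 987, 939 and 997 CPM with M5. It differed by -0.58 (SE 0.03, edgeR adjusted p = 6.8e-15), again with no overlap. Untreated cells had means of 0.468 CPM of TNF and 880.0 CPM of HNRNPU, so TNF with lefamulin lay between untreated and M5 cells and HNRNPU lay below both.

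A gene is called here when the adjusted p of edgeR's quasi-likelihood test over all genes tested is under 0.05. By this rule 4774 genes (33.6%) rose with lefamulin and 4873 (34.3%) fell, and the libraries of the groups did not overlap for 10120 genes (71.2%). At least 2-fold changes were rarer, with 1291 rises (9.09%) and 697 falls (4.91%), and the median of all genes was -0.00. Counts of list members are to be read against these shares of all genes. The even split depended on the scaling. When libraries were scaled by their totals, 4385 genes rose and 5395 fell, with a median of -0.05. The plot of fold change by abundance shows every gene tested.

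**Figure D1:**
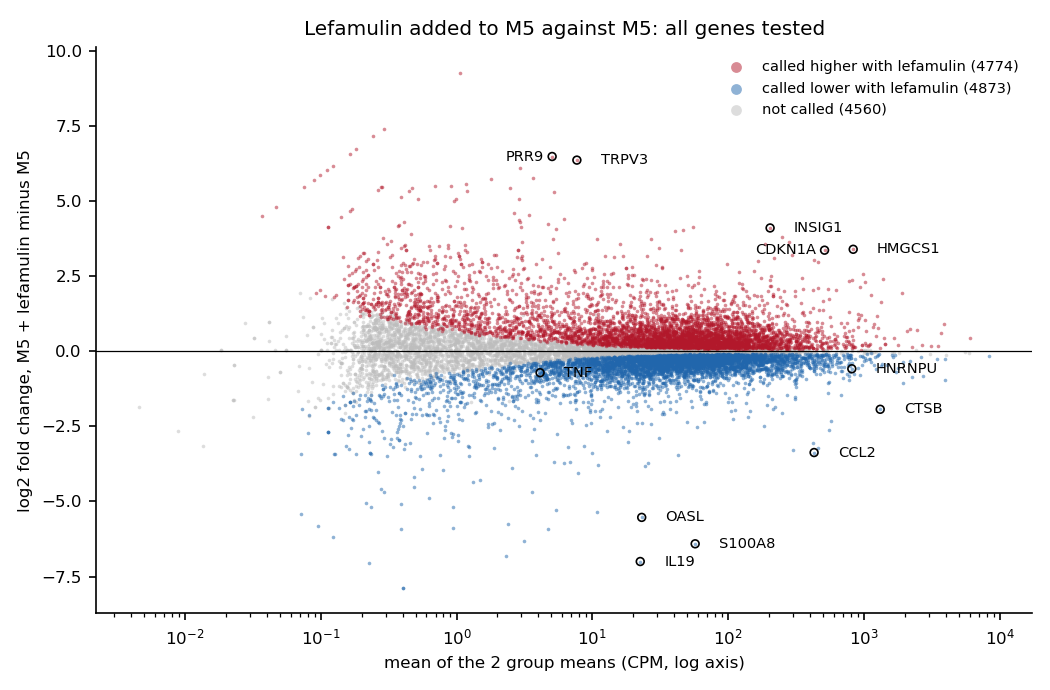
Log2 fold change (M5 + lefamulin minus M5, vertical axis) of the 14207 genes tested against the mean of both group means in CPM (log axis). Red points are the 4774 genes called higher, blue points the 4873 called lower and grey points those not called; the largest changes of well expressed genes include PRR9 and TRPV3 upward and IL19, S100A8 and OASL downward.

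The genes with the largest rises came from nearly silent levels in M5 cells. PRR9, a gene of the epidermal differentiation complex, had 10.1, 9.88 and 10 CPM with lefamulin, against 0.0535, 0.192 and 0.0804 CPM with M5 (6.49, SE 0.41, edgeR adjusted p = 7.4e-19). TRPV3, a heat-gated cation channel of keratinocytes, had 15.0, 15.3 and 15.3 CPM, against 0.294, 0.137 and 0.107 CPM with M5 (6.37, SE 0.28). IL21R, the receptor of the T cell cytokine IL-21, had 5.94, 6.33 and 5.10 CPM with lefamulin, against 0.0267, 0.0275 and 0.188 CPM with M5 (6.10, SE 0.53). All lefamulin libraries were thus far above all M5 libraries for each of these genes. The size of these folds rests on few M5 reads: without M5 replicate 3 that of IL21R was 7.57, and without M5 replicate 2 that of PRR9 was 7.15. On log2(FPKM + 1), which shrinks folds of low genes, they were 3.05 for PRR9, 1.77 for TRPV3 and 1.03 for IL21R, all still called. Others of the 12 largest rises among genes that reached a mean of 5 CPM in the higher group were PNPLA3 (5.32), described with lipid genes below, FCRLA (5.09), a relative of Fc receptors, ESM1 (4.61), a secreted proteoglycan, TM4SF19 (4.53), ZNF114 (4.41), IGFN1 (4.37), INSIG1-DT (4.30), a transcript that diverges from INSIG1, and IL36RN (4.25). IGFN1 had folds of 0.5 to 4.84 under alternatives, all still called. INSIG1-DT is uncertain, since no source used here says whether counting used the strand.

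The largest falls were led by genes that M5 cells expressed and lefamulin cells hardly did. IL19, a cytokine of the IL-10 family, had 0.415, 0.452 and 0.171 CPM with lefamulin, against 42.8, 45.2 and 46.0 CPM with M5 (-7.00, SE 0.28, edgeR adjusted p = 2.7e-19). S100A8, a subunit of the antimicrobial complex calprotectin, had 1.27, 0.932 and 1.77 CPM, against 114, 113 and 111 CPM with M5 (-6.41, SE 0.14). OASL, an interferon-stimulated antiviral gene, had 1.22, 0.734 and 0.969 CPM with lefamulin, against 44.8, 46.3 and 44.7 CPM with M5 (-5.53, SE 0.19). No lefamulin library came near an M5 library for any of these genes. The others of the 12 largest falls were TCIM (-6.31), CHI3L2 (-5.91), a chitinase-like protein, FBLN5 (-5.35), a protein of elastic fibres, IL20 (-5.27), a relative of IL19, ACKR3 (-4.69), a scavenger receptor of the chemokine CXCL12, SHROOM2 (-4.04), an actin-binding protein, the chemokine CXCL5 (-3.82), OLFM4 (-3.80), a secreted glycoprotein, and TNIP3 (-3.71), an inhibitor of NF-kB signalling. ACKR3, SHROOM2 and OLFM4 were also expressed in untreated cells, at 7.10, 12 and 25.6 CPM, and lay under that level with lefamulin, at 0.261, 0.897 and 1.47 CPM.

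Genes of the mevalonate pathway, which makes the building blocks of cholesterol, rose nearly throughout. Of 9 tested members 8 rose and 7 of them at least 2-fold, the median log2 fold change was 2.46, and their summed level was 4493 to 4552 CPM in lefamulin libraries and 653 to 674 CPM in M5 libraries. HMGCS1, the synthase that makes HMG-CoA, had 1505, 1525 and 1537 CPM with lefamulin, against 143, 142 and 146 CPM with M5 (3.40, SE 0.03, edgeR adjusted p = 5.7e-28). MVD (3.00) and IDI1 (2.96), which act further down, rose by a like amount, and the groups did not overlap for any of the 8. PMVK, a kinase that acts between HMGCS1 and MVD, was not called, with means of 8.63 CPM with lefamulin and 8.85 CPM with M5.

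All 13 tested genes of the steps between squalene and cholesterol rose, 12 of them at least 2-fold, with a median of 2.18. MSMO1, a methylsterol oxidase, had 524, 539 and 537 CPM in lefamulin libraries, against 55.4, 58.1 and 61.0 CPM in M5 libraries (3.20, SE 0.04, edgeR adjusted p = 2.2e-26). CYP51A1, the lanosterol demethylase, had 1650.3, 1715 and 1679 CPM with lefamulin, against 281, 289 and 286 CPM with M5 (2.56, SE 0.03). LBR, a receptor of the nuclear lamina that also reduces sterols, rose by 0.08, the smallest fold of the list. Its groups overlapped, and 12 of the 13 genes were called when libraries were scaled by their totals.

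Genes that sense and take up sterols moved in both directions: 8 of 13 rose and 3 fell, with a median of 0.72. INSIG1 had 382, 388 and 384 CPM with lefamulin, against 21.3, 20.3 and 25.4 CPM with M5 (4.11, SE 0.05). INSIG2, the other retention protein, had 74.5, 76.2 and 75.9 CPM, against 27.1, 26.0 and 24.7 CPM with M5 (1.54, SE 0.05; chosen after its values were seen). Both were higher in every lefamulin library, whereas MYLIP, a ubiquitin ligase induced by sterol-sensing nuclear receptors, fell by 1.17.

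Within the SREBP machinery the members parted. SREBF2, which encodes the SREBP of cholesterol synthesis, had 257, 246 and 250.2 CPM with lefamulin, against 154, 150.1 and 152 CPM with M5 (0.72, SE 0.03). SREBF1, which encodes the SREBP of fatty acid synthesis, was not called, at 153, 138 and 144 CPM with lefamulin and 147, 135 and 142 CPM with M5 (0.03, SE 0.04, adjusted p = 0.516); both were chosen after their values were seen. The escort SCAP fell by 0.32 and the protease MBTPS2, which releases SREBP, fell by 0.84, while MBTPS1 was not called at -0.04. Of 6 tested genes of sterol efflux 3 fell and the others were not called, the median being -0.20. ABCA1, the cholesterol exporter, had 0.0829, 0.0565 and 0.0570 CPM with lefamulin, against 0.909, 1.04 and 1.15 CPM with M5, a fall at a low level.

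The promoter windows of RefSeq (build GRCh38.p14, 250 bases before to 50 after each start; no source used here gives the build behind the counts) were searched for an SREBP element spelled TCACNCCAC on both strands. Of 11129 tested genes with a window 1.08% held it, and among the 11 sterol sensing and uptake genes with a window SREBF2 alone did (9.09%). None of the 7 mevalonate and 10 squalene-to-cholesterol genes with a window held these letters. The NF-Y box, spelled CCAAT and searched on both strands, was in 80.0% of the squalene-to-cholesterol windows and in 36.6% of all windows. It was in 37.9% of the windows of all genes that rose and in 36.7% of those that fell. The windows of the mitosis genes described below, most of which fell, held it in 80.0% of cases too. The SREBF2 stretch lies at chr22:41832952-41833000 on the plus strand. Of the NF-Y stretches, those of the 3 risers with the largest fold are shown, at chr4:165327464-165327659 for MSMO1, chr1:162790630-162790674 for HSD17B7 and chr11:121292695-121292739 for SC5D, all on the plus strand. Each ends before the start of its gene, and capitals mark the element on either strand.
SREBF2: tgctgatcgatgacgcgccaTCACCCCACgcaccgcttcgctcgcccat
MSMO1: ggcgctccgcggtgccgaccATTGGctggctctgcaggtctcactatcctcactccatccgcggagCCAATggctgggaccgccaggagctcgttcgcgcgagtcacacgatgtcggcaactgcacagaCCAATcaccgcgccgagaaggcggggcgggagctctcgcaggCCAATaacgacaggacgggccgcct
HSD17B7: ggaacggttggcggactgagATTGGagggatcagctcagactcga
SC5D: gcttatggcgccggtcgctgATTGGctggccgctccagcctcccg
MSMO1 thus had 4 NF-Y boxes in the 250 bases before its start, and HSD17B7 and SC5D had 1 each. HSD17B7, a ketosteroid reductase, rose by 2.50, and SC5D, a sterol desaturase, rose by 2.39.

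Fatty acid synthesis genes rose as well, 12 of 14 with a median of 1.22, and 1 fell. ACSS2, which makes acetyl-CoA from acetate, had 522, 520.1 and 519.6 CPM with lefamulin, against 42.4, 39.6 and 43.6 CPM with M5 (3.64, SE 0.04). FASN, the fatty acid synthase, had 2439, 2259 and 2269 CPM, against 455, 423 and 434 CPM with M5 (2.41, SE 0.03). SCD, the stearoyl-CoA desaturase, rose by 1.96, and the elongases ELOVL5 and ELOVL6 rose by 1.33 and 1.11. ACACA, the carboxylase that commits carbon to fatty acids, rose by 0.16, with means of 169 CPM with lefamulin and 151 CPM with M5. The 1 fall, of ACSL1 by 0.14, was not called when lefamulin replicate 2 or 3 or M5 replicate 1 or 3 was left out.

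Of 11 tested genes of triglyceride and lipid droplet metabolism 8 rose and 2 fell, with a median of 0.41. PNPLA3, a lipid droplet protein, had 9.40, 10.1 and 11.0 CPM with lefamulin, against 0.321, 0.192 and 0.241 CPM with M5. LPIN1, a phosphatidate phosphatase, had 466, 468 and 462 CPM, against 34.3, 31.1 and 34.2 CPM with M5 (3.81, SE 0.04). ANGPTL4, a secreted inhibitor of lipoprotein lipase, rose by 2.16, whereas DGAT2, which completes triglycerides, fell by 2.50 at low levels, with means of 0.0663 CPM with lefamulin and 0.389 CPM with M5, and by 3.64 without lefamulin replicate 3. The plot of lipid gene levels gives each library.

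**Figure D2:**
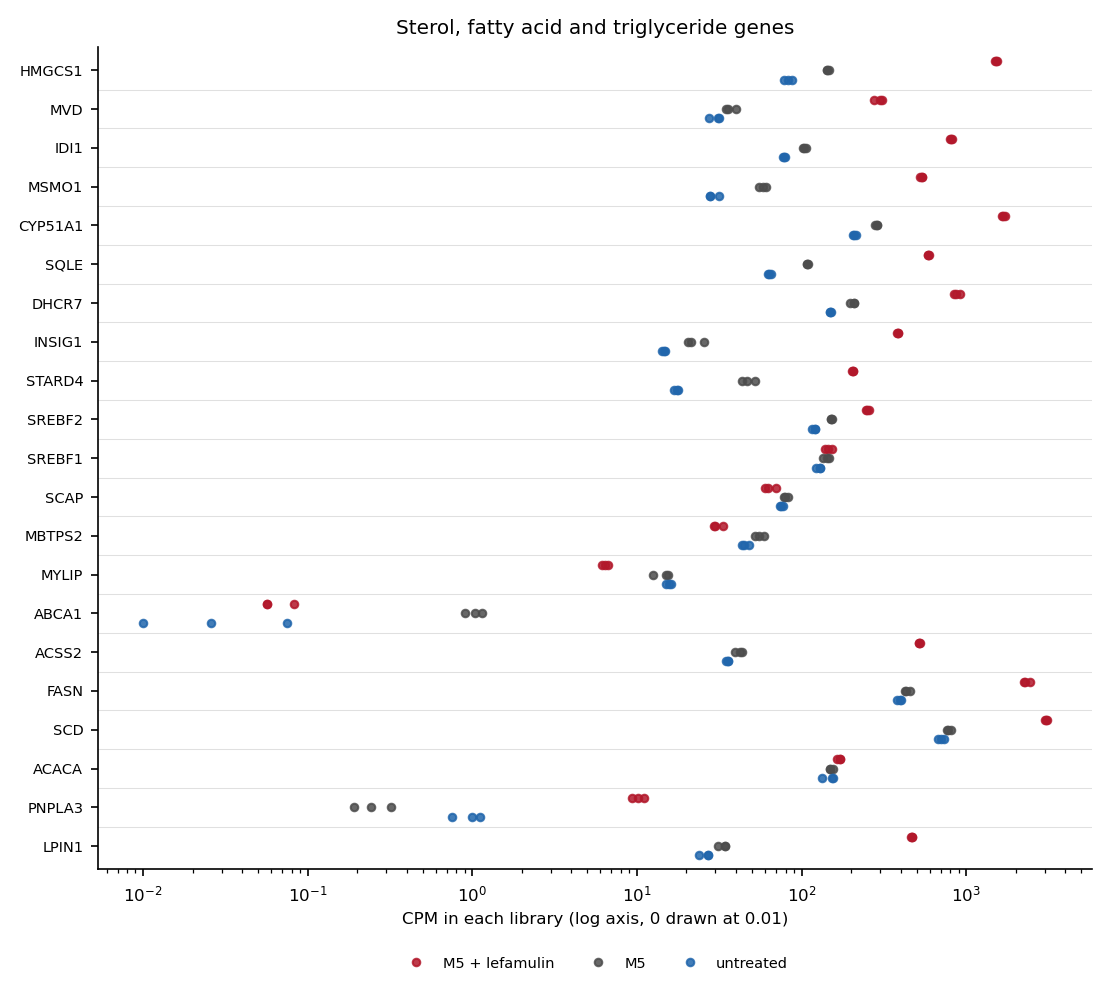
CPM in each library (log axis, 0 drawn at 0.01) of 21 sterol, fatty acid and triglyceride genes, with 3 points per group; red is M5 + lefamulin, grey M5 and blue untreated. The red points of the synthesis genes lie right of both other groups (HMGCS1 at 1505 to 1537 CPM), the groups overlap for SREBF1, and the red points lie left of the grey ones for SCAP, MBTPS2, MYLIP and ABCA1.

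Chemokines fell. All 7 tested genes of the CXC and CX3C families fell, 4 of them at least 2-fold, with a median of -1.11, and their summed level was 1498 to 1544 CPM in lefamulin libraries, 2549.7 to 2690.3 CPM in M5 libraries and 135 to 144 CPM in untreated libraries. CXCL5, which attracts neutrophils, had 3.29, 3.44 and 2.96 CPM with lefamulin, against 44.1, 46.4 and 46.9 CPM with M5 (-3.82, SE 0.10, edgeR adjusted p = 9.7e-21). CXCL8, the gene of interleukin-8, fell less, with 548, 540.4 and 583 CPM with lefamulin, against 934, 1015 and 1013 CPM with M5 (-0.83, SE 0.04; chosen after its values were seen). Of 6 CC chemokines 3 fell and the others were not called, with a median of -1.04. CCL2, which attracts monocytes, had 73.3, 75.1 and 79.3 CPM with lefamulin, against 758, 783 and 808 CPM with M5 (-3.37, SE 0.04). CCL20, the ligand of the receptor CCR6 on T cells, fell by 1.86, while CCL5 was not called, with means of 18.6 CPM with lefamulin and 21.0 CPM with M5.

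An NF-kB element spelled GGANTTTCC, on either strand, was in 5 of the 6 windows of CXC genes (83.3%), and in 1.62% of all windows. The 3 with the largest falls are shown, all on chromosome 4: CXCL5 at chr4:73998739-73998787 on the minus strand, CXCL6 at chr4:73836569-73836617 on the plus strand and CXCL3 at chr4:74038739-74038787 on the minus strand.
CXCL5: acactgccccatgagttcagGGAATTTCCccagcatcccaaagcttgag
CXCL6: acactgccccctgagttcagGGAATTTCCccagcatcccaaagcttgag
CXCL3: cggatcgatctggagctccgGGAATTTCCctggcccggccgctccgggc
The capitals mark the element, which has the same letters in all 3. CXCL5 and CXCL6 are close paralogs, and shared reads could not be examined. CXCL6 fell by 2.22 (-2.46 to -0.62 under alternatives) and CXCL3 fell by 1.34 (-1.39 to -1.28). CXCL5 and CXCL3, with the same element, thus fell by different amounts. The NF-kB element was in 1.77% of the windows of all genes that rose and in 1.84% of those that fell. Among other lists, it was in 28.6% of the mevalonate windows, where most genes rose. The NF-kB list, where more genes fell than rose, held it in 30.0% of windows.

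Other cytokines fell more often than they rose, and a few rose clearly. Of 14 tested genes 9 fell and 3 rose (median -1.02). TNFSF10, the ligand TRAIL, had 6.72, 6.89 and 7.69 CPM with lefamulin, against 79.9, 74.0 and 80.8 CPM with M5 (-3.46, SE 0.08), and it lay under its untreated mean of 14.8 CPM. IL6 fell by 1.67, CSF3, the granulocyte growth factor G-CSF, fell by 1.59, and CSF1 fell by 1.39. The risers were IL11 (2.77), CSF2 (2.58), the growth factor GM-CSF, and IL23A (1.66), a subunit of interleukin-23. IL11 had 28.9, 30.4 and 32.6 CPM with lefamulin, against 4.81, 4.70 and 3.97 CPM with M5. LIF, a cytokine of the IL-6 family, was not called, with means of 685 CPM with lefamulin and 675 CPM with M5.

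The IL-1 and IL-36 family was split, with 4 of 7 tested genes higher and 3 lower. IL1A, an alarmin, had 98.5, 92.9 and 96.6 CPM with lefamulin, against 386, 409 and 406 CPM with M5 (-2.06, SE 0.05). IL1B had 159, 159.9 and 146 CPM, against 454, 463 and 475 CPM with M5 (-1.58, SE 0.04). IL1RN, the antagonist of both, had 20.1, 19.7 and 20.8 CPM with lefamulin, against 1.07, 1.68 and 1.74 CPM with M5 (3.75, SE 0.13). In the IL-36 branch the antagonist IL36RN had 8.57, 8.84 and 9.43 CPM, against 0.561, 0.467 and 0.375 CPM with M5. Its agonist IL36G, however, rose too, with 49.2, 52.5 and 50.9 CPM with lefamulin, against 10.5, 11.7 and 10.7 CPM with M5 (2.22, SE 0.06). IL18 rose by 0.82 and IL33, another alarmin, fell by 4.29. The fold of IL33 depended on the processing and was -4.45 to -0.8 under alternatives.

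Antimicrobial peptides and antiproteases fell with 1 exception. Of 12 tested genes 11 fell, 10 of them at least 2-fold, with a median of -2.12 and a summed level of 1283 to 1328 CPM with lefamulin and 3629.9 to 3799 CPM with M5. SERPINB4, a protease inhibitor, had 87.6, 88.5 and 91.2 CPM with lefamulin, against 833, 782 and 883 CPM with M5 (-3.22, SE 0.04), and its close paralog SERPINB3, from which shared reads could not be told, fell by 3.29. S100A9, the partner of S100A8, fell less than S100A8 did, by 2.63, to a mean of 154 CPM with lefamulin, against 954 CPM with M5 (chosen after its values were seen). RNASE7, a ribonuclease that kills bacteria on skin, was the exception, with 82.8, 87.7 and 90.7 CPM with lefamulin, against 5.61, 5.58 and 4.75 CPM with M5 (4.03, SE 0.08). LCN2, an iron-trapping lipocalin, moved least, by -0.12, with means of 753 CPM with lefamulin and 819 CPM with M5. The plot of mediator levels sets these genes side by side.

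**Figure D3:**
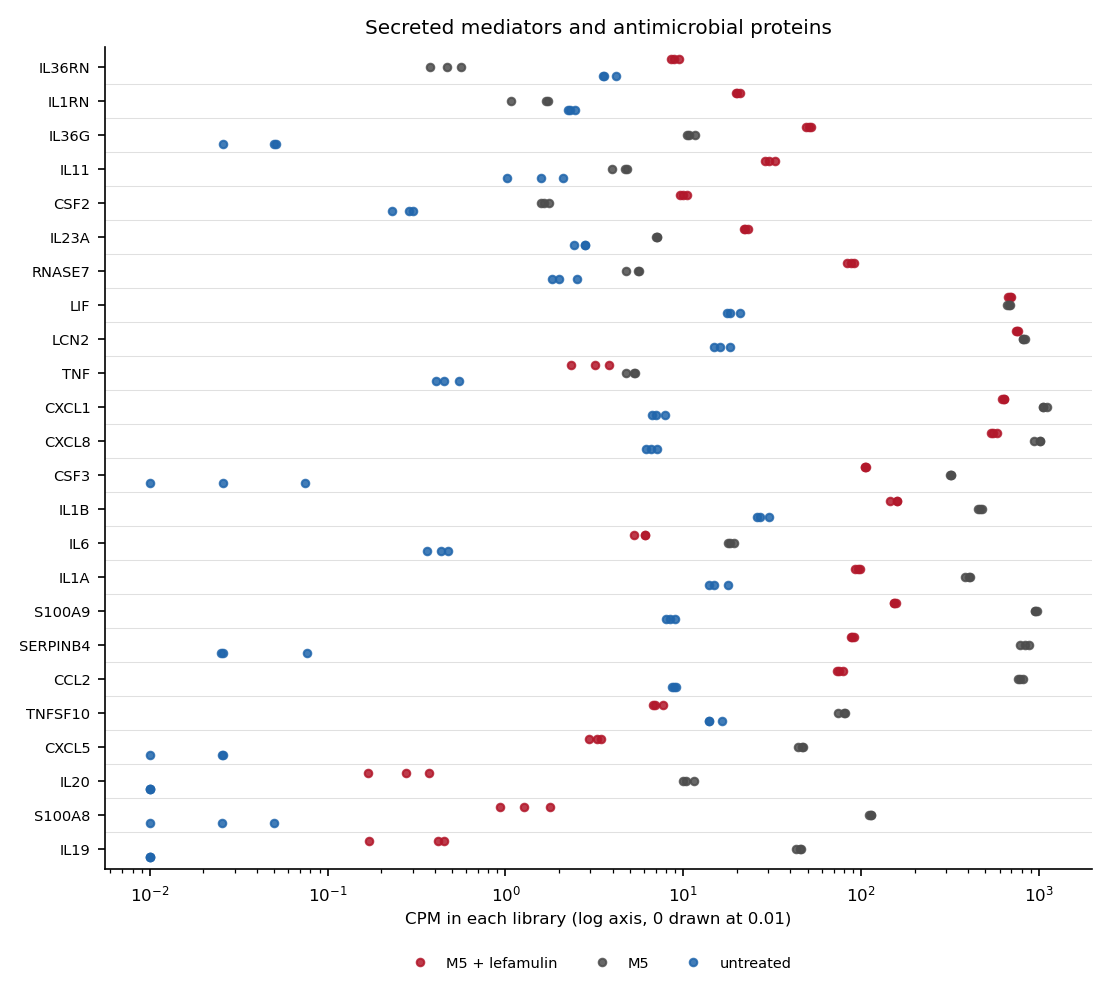
CPM in each library (log axis, 0 drawn at 0.01) of 24 secreted mediators and antimicrobial proteins, with 3 points per group; red is M5 + lefamulin, grey M5 and blue untreated. Red lies right of grey from IL36RN to RNASE7, overlaps it for LIF, and lies left of it from LCN2 down to IL19, where lefamulin libraries hold 0.171 to 0.452 CPM and M5 libraries 42.8 to 46.0 CPM.

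Cytokine receptors and signalling genes moved both ways. Of 16 tested cytokine receptors 5 rose and 9 fell, with a median of -0.29. IFNGR1, a chain of the interferon-gamma receptor, had 144, 146 and 146 CPM with lefamulin, against 393, 393 and 403 CPM with M5 (-1.44, SE 0.03), and IL1R1, the receptor of IL-1, fell by 1.27. OSMR, the oncostatin M receptor, rose by 0.96 to a mean of 903 CPM with lefamulin, against 463 CPM with M5. Of 22 genes of NF-kB subunits, inhibitors and feedback 5 rose and 11 fell, with a median of -0.14. TNFAIP2 fell by 3.04 and NFKBIA, the inhibitor that NF-kB itself induces, fell by 0.98, whereas the feedback inhibitor TNFAIP3 was not called at -0.04 and the subunit RELA rose by 0.38. STAT3 and SOCS genes were even, with 4 of 10 higher and 4 lower. The kinase PIM1 rose by 1.68, and SOCS1, an inhibitor of JAK kinases, had 3.35, 3.70 and 2.42 CPM with lefamulin, against 17.7, 15.5 and 16.0 CPM with M5 (-2.38, SE 0.14).

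Of 31 interferon-stimulated genes 18 fell and 8 rose (median -0.56). Beside OASL, IFI44 had 0.747, 1.13 and 0.741 CPM with lefamulin, against 11.2, 11.7 and 11.4 CPM with M5 (-3.71, SE 0.19, edgeR adjusted p = 3.6e-15). GBP2, a guanylate-binding protein, fell by 2.98. STAT2, a transcription factor of the interferon response, rose instead, with 159, 155 and 155 CPM with lefamulin, against 63.9, 64.6 and 61.3 CPM with M5 (1.30, SE 0.04), and so did ISG20 (2.02) and IRF7 (0.88). The interferon-stimulated response element, spelled AANNGAAAC on either strand, was in 18 of 23 windows of the list (78.3%) and in 4.0% of all windows. The 3 called members with the largest change and an element before the start are IFI44 at chr1:78649750-78649788, RSAD2 at chr2:6865714-6865796 and ISG20 at chr15:88638929-88638977, all on the plus strand.
IFI44: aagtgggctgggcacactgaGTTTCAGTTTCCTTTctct
RSAD2: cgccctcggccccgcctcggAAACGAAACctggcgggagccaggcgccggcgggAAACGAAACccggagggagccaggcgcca
ISG20: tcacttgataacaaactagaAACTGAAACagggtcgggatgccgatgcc
Capitals mark the elements, of which 2 overlap in IFI44. IFI44 and RSAD2 fell, RSAD2 by 2.82 with means of 0.0468 CPM with lefamulin and 0.351 CPM with M5, and ISG20 rose, so the element stood before genes that moved in opposite directions.

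Genes that present antigen on class I molecules were divided, with 7 of 15 higher and 6 lower and a median of 0.12. NLRC5, the activator of class I genes, rose by 1.29 and HLA-E by 0.31, while the immunoproteasome subunits PSMB9, PSMB10 and PSMB8 fell by 1.75, 1.0 and 0.86. PSMB9 had 9.59, 8.30 and 9.43 CPM with lefamulin, against 31.1, 31.0 and 29.6 CPM with M5. Of 10 complement genes 5 fell, among them the proteases C1R (-2.24), CFB (-1.53) and C1S (-1.35). The 3 that rose were CD55 (1.13), CD46 (0.79) and CD59 (0.25), all inhibitors of complement on the cell surface. C1R had 38.9, 37.9 and 36.8 CPM with lefamulin, against 179, 178 and 180.0 CPM with M5.

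Immediate early genes, which cells switch on within minutes of a stimulus, rose in 18 of 20 tested cases and fell in 2, with a median of 1.29. FOSB, an AP-1 subunit, had 31.2, 27.5 and 32.4 CPM with lefamulin, against 3.93, 2.86 and 3.22 CPM with M5 (3.18, SE 0.12, edgeR adjusted p = 1e-17). The nuclear receptors NR4A3 and NR4A1 rose by 2.81 and 2.80, that of NR4A3 being 0.46 to 3.06 under alternatives. FOSL2, another AP-1 subunit, fell by 0.81 to a mean of 167 CPM with lefamulin, against 293 CPM with M5. Feedback genes of MAP kinase signalling went the same way, with 14 of 17 higher, the others not called and a median of 0.76. DUSP5, a phosphatase of ERK kinases, had 182, 169 and 166 CPM with lefamulin, against 22.1, 23.2 and 23.8 CPM with M5 (2.90, SE 0.05), and DUSP10 (2.28), SPRED3 (2.23) and DUSP4 (1.53) rose as well. Under alternatives the fold of SPRED3 was 0.47 to 2.48. The EGF receptor family and its ligands were split, with 6 of 12 higher and 5 lower. HBEGF rose by 1.14 and the feedback inhibitor ERRFI1 rose by 1.11, while the ligands EPGN, NRG1 and EREG fell by 2.63, 1.55 and 1.47.

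Every tested gene of DNA replication fell, 38 of 38, and 16 of them at least 2-fold, with a median of -0.93 and a summed level of 2870.3 to 2890.1 CPM in lefamulin libraries and 5243 to 5342 CPM in M5 libraries. E2F1, the transcription factor that drives entry into S phase, had 13.5, 11.8 and 12.1 CPM with lefamulin, against 55.0, 52.4 and 50.9 CPM with M5 (-2.08, SE 0.07, edgeR adjusted p = 5.2e-19). CCNE2, a cyclin of the same transition, had 8.21, 8.25 and 9.23 CPM, against 32.4, 34.5 and 35.8 CPM with M5 (-2.00, SE 0.09). MCM6, a subunit of the replicative helicase, had 45.6, 50.5 and 45.6 CPM with lefamulin, against 158, 151 and 149 CPM with M5 (-1.69, SE 0.04). CDC6, which loads that helicase, had the smallest fold, -0.21. These levels were also below those of untreated cells, whose means were 58.4 CPM for E2F1, 33.4 CPM for CCNE2 and 183 CPM for MCM6.

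The E2F element, spelled TTTNGCGC on either strand, was in 14 of 33 windows of replication genes (42.4%) and in 3.0% of all windows. The 3 with the largest falls and an element before the start are E2F1 at chr20:33686386-33686425 on the minus strand, MCM6 at chr2:135876502-135876615 on the minus strand and CDT1 at chr16:88803556-88803603 on the plus strand.
E2F1: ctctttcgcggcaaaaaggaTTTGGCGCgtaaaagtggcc
MCM6: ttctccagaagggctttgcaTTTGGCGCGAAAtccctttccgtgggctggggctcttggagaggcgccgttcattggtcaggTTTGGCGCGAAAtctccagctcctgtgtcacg
CDT1: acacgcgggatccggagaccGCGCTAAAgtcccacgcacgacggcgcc
Capitals mark the element. In MCM6 it occurred 4 times, as 2 pairs in which the forward and reverse spelling overlap. CDT1, a licensing factor, fell by 1.16.

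Genes of mitosis fell in 24 of 30 cases and rose in 3, by less than those of replication, with a median of -0.33 and none of them 2-fold. KIF20A, a kinesin of cytokinesis, fell by 0.83 and CCNA2 (cyclin A2) by 0.77, while CDC25C, a phosphatase that starts mitosis, rose by 0.62 to 24.1, 21.5 and 24.2 CPM with lefamulin, against 13.4, 16.4 and 15.8 CPM with M5. Among 11 tested CDK inhibitors and D cyclins 5 rose and 3 fell. CDKN1A, which encodes the inhibitor p21, had 946, 923 and 936 CPM with lefamulin, against 92.6, 88.5 and 90.2 CPM with M5 (3.37, SE 0.03, edgeR adjusted p = 1.9e-28), and the untreated mean was 28.1 CPM. CDKN2B, the inhibitor p15, rose by 2.26, and CDKN2C fell by 1.18. Of 21 genes of p53 and its targets 11 rose and 6 fell, with a median of 0.17. TP53INP1 had 31.3, 29.9 and 30.7 CPM with lefamulin, against 5, 3.55 and 4.91 CPM with M5 (2.77, SE 0.10), MDM2 rose by 0.48, BAX was not called at 0.00, and PLK2 fell by 0.76.

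**Figure D4:**
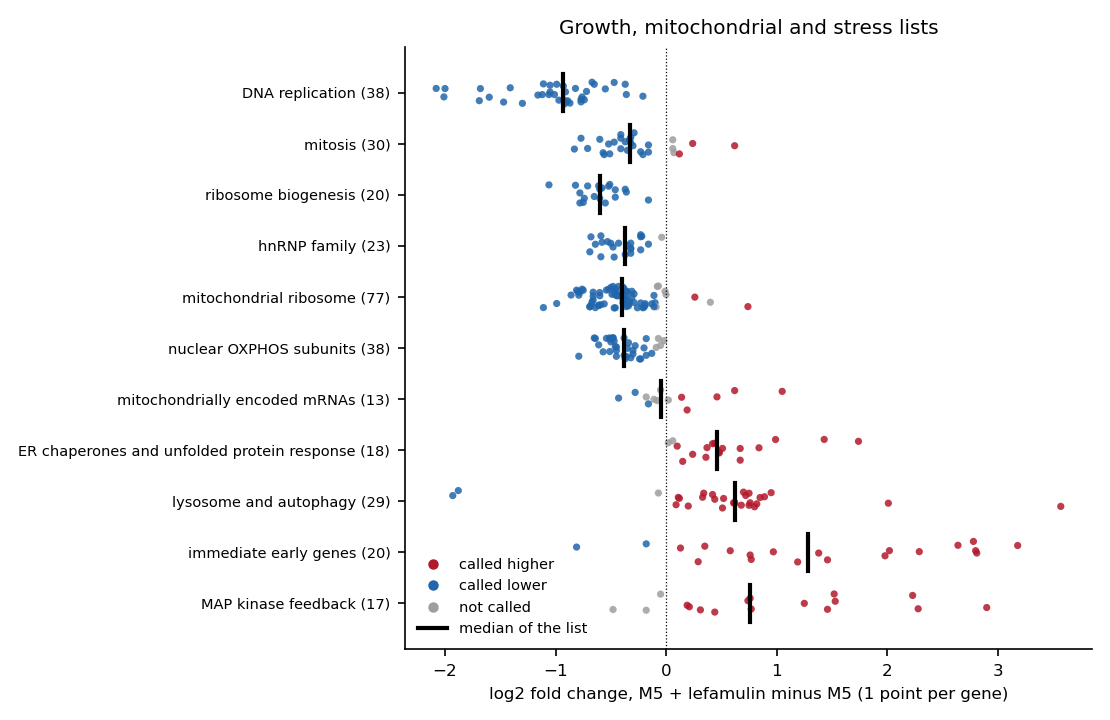
Log2 fold change (M5 + lefamulin minus M5) of each tested gene, 1 point per gene, in 11 lists; red points are called higher, blue called lower and grey not called, and the black bar is the median of the list. DNA replication lies wholly left of 0 with a median of -0.93, the mitochondrial ribosome and nuclear OXPHOS lists have medians of -0.40 and -0.38, and mitochondrially encoded mRNAs lie on both sides.

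Genes of epidermal structure and differentiation were split into several lists. Of 21 tested genes of the cornified envelope and differentiation 11 rose and 2 fell, with a median of 0.51. SPRR1A, a small proline-rich precursor of the envelope, had 5.81, 5.28 and 5.78 CPM with lefamulin, against 0.668, 0.137 and 0.134 CPM with M5 (4.14, SE 0.34, edgeR adjusted p = 2.3e-12). Its fold was 5.34 without M5 replicate 1, whose level is the highest of the M5 libraries, and 2.70 on log2(FPKM + 1). OVOL1 (1.81) and GRHL3 (1.27), transcription factors of differentiation, rose too. IVL (involucrin) and FLG (filaggrin), both chosen after their values were seen, were not called and stayed under 1 CPM in both groups, with means of 0.234 CPM and 0.376 CPM with lefamulin, against 0.325 CPM and 0.586 CPM with M5. The AP-1 element, spelled TGANTCA on either strand, was in 8 of 13 windows of this list (61.5%) and in 5.09% of all windows. The 3 with the largest changes lie close together on chromosome 1, all on the plus strand: PRR9 at chr1:153217427-153217473, SPRR1A at chr1:152983953-152983999 and SPRR1B at chr1:153031042-153031118.
PRR9: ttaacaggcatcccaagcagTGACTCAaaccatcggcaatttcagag
SPRR1A: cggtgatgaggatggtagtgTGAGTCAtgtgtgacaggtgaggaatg
SPRR1B: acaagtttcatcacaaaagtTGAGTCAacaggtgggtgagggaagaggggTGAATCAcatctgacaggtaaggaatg
Capitals mark the element, of which SPRR1B had 2 before its start. SPRR1B rose by 2.99. It is a paralog of SPRR1A, and shared reads could not be examined. The AP-1 element was in 6.43% of the windows of all genes that rose and in 3.85% of those that fell. The windows of the antimicrobial list, where most genes fell, held it in 33.3% of cases.

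Stress keratins, which psoriatic and wounded epidermis makes, all fell, 4 of 4 with a median of -1.94. KRT17 had 4.26, 3.67 and 4.33 CPM with lefamulin, against 18.7, 18.2 and 19.6 CPM with M5 (-2.20, SE 0.09). KRT16 fell by 1.38, and KRT6A and KRT6B, paralogs with uncertain counts, fell by 1.67 and 4.34. Simple epithelial keratins went the other way, with 4 of 5 higher and KRT7 not called, at a median of 0.76. KRT8 had 5109.7, 4981 and 5095 CPM with lefamulin, against 2772, 2629 and 2639 CPM with M5 (0.92, SE 0.03), and its partner KRT18 rose by 0.72.

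Genes of attachment and cell contact mostly rose. Of 16 basal keratinocyte and hemidesmosome genes 10 rose and 5 fell, with a median of 0.30. ITGA2, the collagen-binding integrin chain, had 1266, 1339 and 1312 CPM with lefamulin, against 257, 249.5 and 264 CPM with M5 (2.34, SE 0.04), PLEC (plectin) rose by 1.31 and the laminin chain LAMB3 rose by 1.19. TP63, the transcription factor of basal keratinocytes, had 117, 111 and 114 CPM, against 217, 229.6 and 238 CPM with M5 (-1.0, SE 0.04). Of 11 cadherins and desmosome genes 10 rose, led by DSC2 (1.44) and CDH1 (0.95), the gene of E-cadherin. Of 17 matrix proteases and plasminogen genes 7 rose and 9 fell. The stromelysin MMP10 and the urokinase PLAU rose by 2.44 and 2.10, and the urokinase receptor PLAUR rose by 1.27. The other plasminogen activator PLAT fell by 1.39 and the aggrecanase ADAMTS4 fell by 3.69 (-4.02 to -0.9 under alternatives). PLAU had 744, 750.0 and 752 CPM with lefamulin, against 174, 175 and 175 CPM with M5.

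Of 9 hyaluronan genes 5 rose and 3 fell, and its synthases moved apart. HAS3 had 196, 188 and 189 CPM with lefamulin, against 966, 922 and 960.4 CPM with M5 (-2.31, SE 0.04), whereas HAS2 had 19.5, 17.8 and 19.4 CPM, against 4.62, 4.10 and 4.08 CPM with M5 (2.15, SE 0.09). Among 21 targets and members of TGF-beta and YAP signalling 13 rose and 7 fell, with a median of 0.25. CCN2 and CCN1 rose by 2.90 and 1.69, and SMAD6 and TGFB2 fell by 2.12 and 1.97. Under alternatives the fold was 0.69 to 3.2 for CCN2 and -2.18 to -0.54 for SMAD6. Of 10 Notch genes 3 rose and 6 fell, the ligands JAG2 and DLL1 by 1.08 and 0.77. Of 9 prostaglandin genes 8 fell and the receptor PTGER4 was not called, with a median of -0.76. PTGS2, the inducible cyclooxygenase, had 189.8, 190.3 and 191 CPM with lefamulin, against 429.9, 425 and 457 CPM with M5 (-1.20, SE 0.05). Of 7 TRP channels 5 rose, TRPV3 by far the most and the others by 0.35 to 0.46, and TRPV6, a calcium channel, fell by 0.87.

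Stress programmes were uneven. Of 26 genes of the ATF4 amino acid response 16 rose and 4 fell, with a median of 0.45. CTH, which makes cysteine, rose by 1.89, TRIB3 by 1.60 and ATF4 itself by 0.84, but the amino acid transporter SLC7A5 had 1317, 1222 and 1261 CPM with lefamulin, against 2659, 2565 and 2604 CPM with M5 (-1.04, SE 0.03). Of 18 chaperones and regulators of the endoplasmic reticulum 16 rose and the others were not called, with a median of 0.46. DNAJB9 had 57.5, 60.7 and 62.2 CPM with lefamulin, against 16.6, 17.5 and 19.8 CPM with M5 (1.74, SE 0.06), and HERPUD1 rose by 1.43. Cytosolic heat shock genes went down, 9 of 13, while 4 rose. HSPA8, the constitutive HSP70, had 2647, 2667 and 2696 CPM, against 5191, 5092 and 5287 CPM with M5 (-0.96, SE 0.03), and HSP90AB1 fell by 0.82.

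Targets of NRF2, the regulator of antioxidant genes, were nearly balanced, with 9 of 21 higher and 8 lower, and their median of 0.03 was -0.02 when libraries were scaled by their totals. HMOX1, the heme oxygenase, rose by 2.75 to a mean of 1.41 CPM with lefamulin, against 0.206 CPM with M5 (3.49 without M5 replicate 1), and AKR1C2, an aldo-keto reductase with close paralogs, had 41.6, 41.3 and 44.2 CPM with lefamulin, against 164, 167 and 172 CPM with M5 (-1.99, SE 0.04). Of 30 genes of glycolysis and hypoxia 20 rose and 5 fell, with a median of 0.33. ENO2 (2.47), PFKFB4 (2.35) and VEGFA (1.08) rose, and GAPDH fell by 0.27 and PFKFB3 by 0.47. All 5 tested metallothioneins and zinc exporters rose, led by MT1X (1.41), and 4 of them on library totals. Of 7 tested xenobiotic receptors and targets 4 fell and 1 rose. CYP1B1, a target of the aryl hydrocarbon receptor, fell by 1.96 to 46.4, 45.9 and 45.4 CPM with lefamulin, against 175, 179 and 180.4 CPM with M5, and the receptor AHR itself fell by 1.09.

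Lysosome and autophagy genes rose in 26 of 29 cases and fell in 2, with a median of 0.62. WIPI1, which binds the lipids of forming autophagosomes, had 29.3, 29.8 and 29.8 CPM with lefamulin, against 2.91, 2.58 and 1.98 CPM with M5 (3.57, SE 0.11, edgeR adjusted p = 3.4e-20). NEU1, a lysosomal sialidase, had 314, 313 and 313 CPM, against 80.5, 76.3 and 77.0 CPM with M5 (2.01, SE 0.04). The 2 that fell stood far from the rest. CTSB, the protease cathepsin B, had 543, 540.0 and 563 CPM with lefamulin, against 2140.2, 2051 and 2069.8 CPM with M5 (-1.93, SE 0.03), and TFEB, a transcription factor of lysosomal genes, fell by 1.88 to a mean of 1.20 CPM, against 4.44 CPM with M5.

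Nuclear genes of mitochondria fell by modest amounts. Of 77 tested genes of the mitochondrial ribosome 69 fell and 2 rose, with a median of -0.40. MRPL16 had 27.1, 25.3 and 27.8 CPM with lefamulin, against 59.0, 56.6 and 57.5 CPM with M5 (-1.11, SE 0.05, edgeR adjusted p = 9.1e-16), and MRPL49, an exception, rose by 0.74. Of 38 nuclear subunits of oxidative phosphorylation 34 fell and the others were not called, with a median of -0.38, led by CYC1 (cytochrome c1) at -0.79. Of 14 mitochondrial chaperones and proteases 9 fell and 3 rose. The chaperone HSPD1 had 516, 533 and 528 CPM, against 1029.5, 1009.5 and 1043 CPM with M5 (-0.97, SE 0.03), TRAP1 fell by 0.98, and the 3 rises were of at most 0.17 and lost their calls on library totals.

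The 13 mRNAs of mitochondrial DNA did not move as 1 block, with 5 higher, 3 lower and 5 not called. Their median was -0.05, and 0.08 when M5 replicate 2 was left out. ND3, a subunit of complex I, had 1246, 1359 and 1502 CPM with lefamulin, against 597, 726 and 662 CPM with M5 (1.05, SE 0.07, edgeR adjusted p = 8.7e-13). ND2 rose by 0.62 and COX3, a subunit of complex IV, rose by 0.46. ND5, from the same genome, had 1074, 1134 and 1259.6 CPM, against 1456, 1711 and 1507 CPM with M5 (-0.43, SE 0.05), and COX1 fell by 0.16. Libraries of the groups did not overlap for any of these 5 mRNAs. The calls of ATP6 (0.19) and ND6 (-0.28) were each lost under some alternatives (6 for ATP6 and 7 for ND6, of 16 each), with adjusted p up to 0.314 for ATP6 and 0.259 for ND6.

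Genes of ribosome biogenesis all fell, 20 of 20 with a median of -0.60. NOP56, a protein of the nucleolar particles that modify ribosomal RNA, had 136, 129 and 128 CPM with lefamulin, against 270.3, 279 and 267 CPM with M5 (-1.06, SE 0.03). The hnRNP family, RNA-binding proteins of the nucleus that include HNRNPU, fell in 22 of 23 tested cases, with a median of -0.37 and folds between -0.69 and -0.04. HNRNPAB (-0.69), HNRNPC (-0.68) and HNRNPD (-0.64) had the largest falls, and whether they differ from that of HNRNPU was not tested. HNRNPC had 605, 608 and 607 CPM with lefamulin, against 971, 958 and 980.4 CPM with M5. HNRNPK was not called, with means of 1013 CPM with lefamulin and 1041 CPM with M5. The plot of list shares sets all larger lists beside the shares of all genes.

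**Figure D5:**
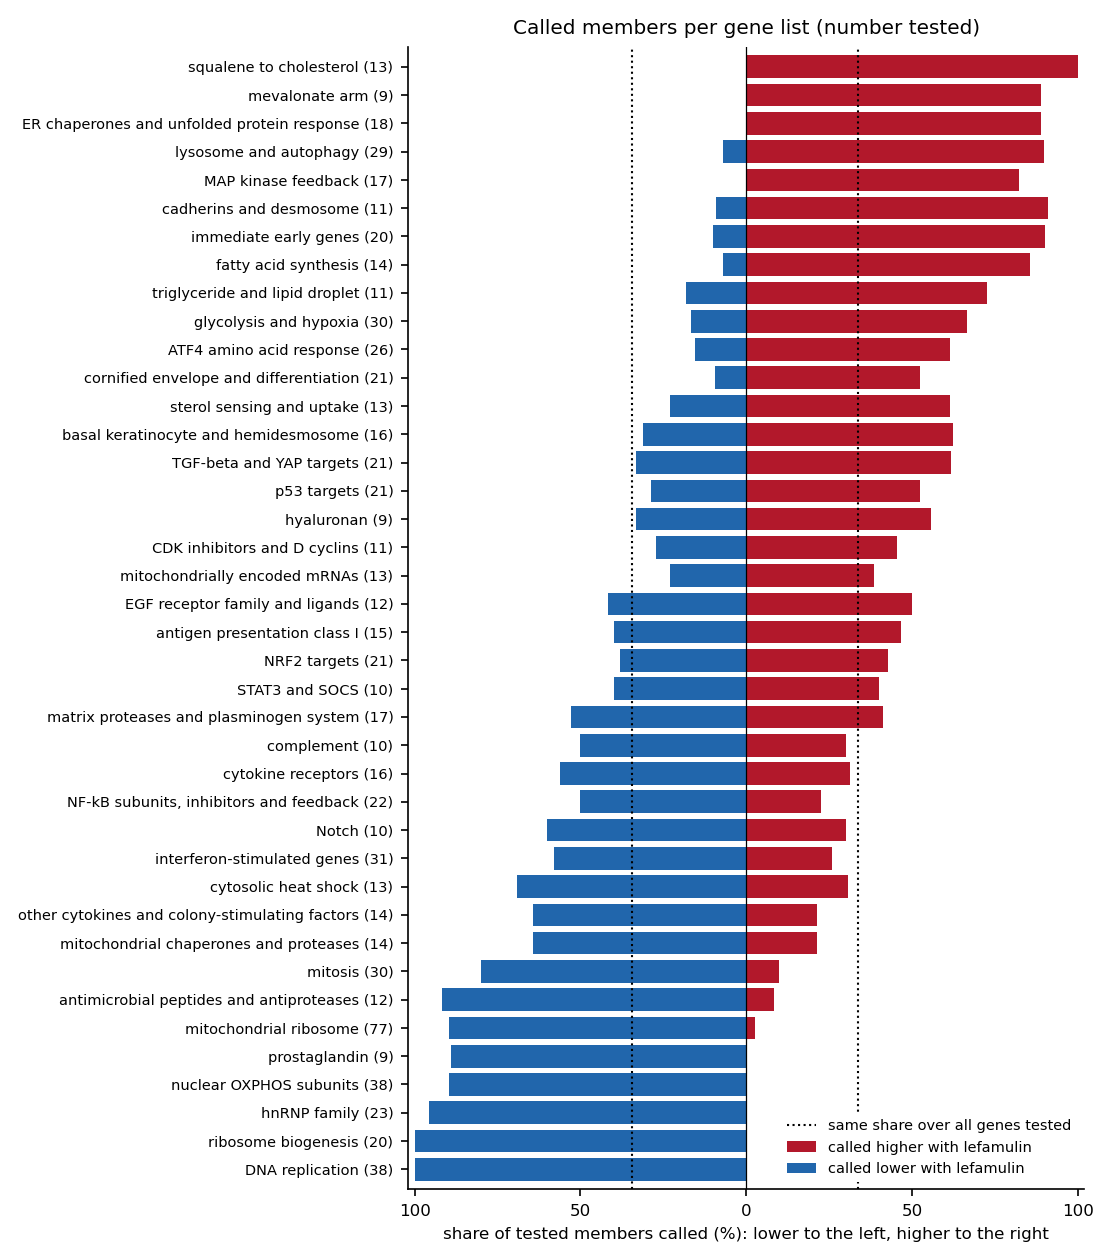
Share of tested members called higher (red, to the right) and lower (blue, to the left) with lefamulin, in percent, for those 40 lists in which 9 or more members were tested; the number tested follows each name and dotted lines mark the shares over all genes tested, 33.6% higher and 34.3% lower. Squalene to cholesterol reaches 100% higher, and ribosome biogenesis and DNA replication reach 100% lower.

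Untreated cells place these levels. Against untreated cells, 5244 genes (36.9%) were higher and 5275 (37.1%) lower in cells given M5 and lefamulin; this comparison shares the lefamulin libraries with the one above, so no overlap between them is given. With libraries scaled by their totals the split against untreated cells was 4204 genes higher and 6677 lower. Of 7 CXC genes all 7 were higher with lefamulin than in untreated cells, and of 12 antimicrobial genes 11 were, so most of these genes fell against M5 yet lay above untreated levels. CXCL1, for example, had a mean of 627 CPM with lefamulin, 1071 CPM with M5 and 7.20 CPM untreated (chosen after its values were seen). OASL, TNFSF10 and TNFAIP2 lay below untreated levels with lefamulin, by -0.78, -1.06 and -0.80, although M5 alone had raised each of them. All 38 replication genes were lower than in untreated cells, with a median of -1.17, and all 13 squalene-to-cholesterol genes were higher, with a median of 2.54. CDKN1A was higher than untreated by 5.06, and HMGCS1 by 4.20.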

How the data were processed

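RNA sequencing of HaCaT cells was used, with 3 libraries in each of 4 groups. The authors deposited raw counts per gene symbol, made with HISAT2 and HTSeq per the submitters' processing notes; no source used here gives their versions, the genome build or the strand setting. The deposited FPKM table equals count over gene length and library total within 0.001 for 20422 genes. The labels' extraction protocol names mouse epidermis, which differs from the labelled human line. The labels give 1 batch, and do not say whether libraries came from separate cultures, so p-values may measure technical spread only.

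Groups follow the labels. Genes were kept with filterByExpr, scaled by TMM and tested with edgeR 4.0.16 (R 4.3.3) quasi-likelihood F-tests, with all 12 libraries in the fit and Benjamini-Hochberg adjustment over 14207 genes; genes were called at an adjusted p under 0.05. CPM values and log2 fold changes come from that fit. The depth was 35626528 to 37272290 counts in M5 libraries and 36014872 to 36847898 in lefamulin libraries, and the common biological coefficient of variation was 0.0449. The fit was tested on simulated data of the lefamulin against M5 comparison (13950 genes). It recovered 86 of 100 genes changed by 0.5 (log2) and 97 of 100 changed by 1, with 8 false calls. Only genes with a mean of at least 1 CPM were changed, and far fewer than were called in the data. Recovery at lower levels was thus not examined. Same-numbered libraries of the compared groups did not deviate together (correlations 0.0558, -0.0442 and -0.14), so the numbers were not taken as pairs. Alternatives were other scalings, DESeq2 1.42.0, other filters, only the compared groups, a replicate block, limma 3.58.1 on log2(FPKM + 1) and log2(FPKM + 0.1), and leaving out each library.

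The 54 gene lists (49 processes and 5 marker lists; 934 entries, 915 matched, 15 of them through a RefSeq synonym, 19 not matched) and the comparison itself were chosen with earlier results of these data known. Named genes are TNF and HNRNPU, the 12 largest called rises and falls with at least 5 CPM in the higher group and no overlap, and up to 4 called members per list and direction; some of these are not reported here. Genes outside that rule were chosen after their values were seen: CDH5, PMVK, LBR, SREBF2, SREBF1, MBTPS1, INSIG2, ELOVL5, ELOVL6, ACACA, CXCL8, CXCL1, CCL5, CSF3, CSF1, LIF, S100A9, LCN2, TNFAIP3, CDC6, MDM2, BAX, GRHL3, IVL, FLG, KRT7, PTGER4, ATF4, VEGFA and HNRNPK, and the families, DKK1 and BHLHE40 of the closing section. SC5D, RSAD2 and CDT1 were named as promoters, which are the called members with the largest changes among those with the element before the start, at most 3 a list. Genes on chromosome 8 were left out of that choice. Promoter sequences are those of RefSeq (GRCh38.p14). Counts of paralogs and of overlapping or antisense genes are uncertain, since no source used here says how shared reads were handled.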

Additional observations from a re-analysis of the deposited data

How the results depend on the processing

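Between lefamulin and M5, the alternatives called 9177 to 9862 genes (9647 in the fit reported), and leaving out 1 library 9177 to 9404. The replicate block called 4746 genes higher and 4832 lower, 9578 in all. On library totals 4385 were higher and 5395 lower, and on log2(FPKM + 1) the split was 4322 and 5305. Same-numbered libraries of these groups did not deviate together, so the numbers were not taken as pairs. Whether they mark shared cultures is not known. Of 5081 values of named genes under alternatives, 4995 kept direction and call and 86, from 19 of 318 genes, lost the call. The median of the NRF2 targets was -0.02 on library totals and on log2 FPKM with either pseudocount or no filter, against 0.03 in the fit reported. The median of the mitochondrially encoded mRNAs was -0.12 to 0.08 when 1 library was left out (0.08 without M5 replicate 2), and that of the fibroblast markers, of which 2 were tested, -0.72 to 0.60 (-0.72 without lefamulin replicate 3). For M5 against untreated cells, 4022 genes higher became 2675 on library totals and 2574, 2619 and 2556 on log2 FPKM with pseudocount 1, with 0.1 and without filter; 3817 lower became 5823 on library totals and 5771 and 5895 on log2 FPKM with pseudocount 1, with and without the filter. The cause was not tested. Genes under about 1 CPM have the largest errors, and a count of 0 over the 3 libraries of a group allows up to 0.0281 CPM with lefamulin and 0.027 CPM with M5 (counting error only).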

Other observations

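The families and single genes below were chosen after their values were seen. Of 83 tested genes of cytosolic ribosomal proteins 62 fell and 1 rose, by small amounts, with a median of -0.14. Of 24 small nucleolar RNA host genes 19 fell and 3 rose (median -0.53). SNHG1 had 90.9, 91.1 and 86.3 CPM with lefamulin, against 215, 214 and 214 CPM with M5 (-1.26), while SNHG18 rose by 0.97. Of 37 proteasome subunits, which include PSMB8, PSMB9 and PSMB10 described with antigen presentation, 26 fell and 3 rose, and of 11 SR splicing factors 8 fell and 1 rose, with medians of -0.15 and -0.31.

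Claudins, which seal the contacts between epithelial cells, rose in 6 of 8 cases and fell in 1. Among the rises, CLDN9 and CLDN3 were at low levels. Their means were 0.224 and 0.411 CPM with lefamulin, against 0 and 0.0897 CPM with M5. CLDN4 had 1405, 1357 and 1381 CPM with lefamulin, against 278, 257 and 264 CPM with M5 (2.37), whereas CLDN1, the claudin on which the skin barrier depends in mice, fell by 1.02. Of 21 enzymes of sphingolipid metabolism, whose products include the ceramides of the skin barrier, 11 rose and 6 fell, with a median of 0.28; SMPD1 is also a member of the lysosome list. SPTLC2, a subunit of the enzyme of the first step, had 326, 344 and 334 CPM with lefamulin, against 94.7, 88.4 and 98.1 CPM with M5 (1.84). DKK1, a secreted inhibitor of Wnt signalling, had 269.9, 270.1 and 269.6 CPM with lefamulin, against 42.8, 42.3 and 41.7 CPM with M5 (2.67), and untreated cells averaged 202 CPM. BHLHE40, a transcriptional repressor, rose by 2.51.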
